A study of Mus musculus with 16 samples.

Results

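The genes described here are 32 mouse genes of the basement membrane, the collagen IV and laminin chains with their linkers, proteoglycans and attached matrix proteins, taken as a list by symbol and matched to 32 of the 55536 genes in the count table. RNA was sequenced from an inner medullary collecting duct line, which models the epithelium at the end of the kidney tubule and was derived from a Pkd2 knockout mouse and loses Pkd2 when doxycycline (DOX) is added. Cells of passage 4 and of passage 7 were grown on filters for 10 days in medium with 5% serum. DOX at 2 ug/mL was given for 6 days or withheld, with 4 libraries in each of the 4 groups. The sample titles name all 16 libraries as Pkd2KO cells, whereas the genotype label reads wild type for the 8 libraries without DOX and Pkd2KO induced by DOX for the 8 with it. By the titles all groups carry the inducible allele, and no group received DOX without that allele, so the drug and the loss of Pkd2 cannot be told apart. The sources used here do not name the promoter that drives the inducible system, and everything comes from 1 cell line. Whether the 4 replicates of a group were separate cultures is not labelled. The p-values thus cover the spread among the libraries alone, which may be technical.

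The basement membrane is the thin sheet of matrix under an epithelium. Laminins, heterotrimers of an alpha, a beta and a gamma chain, form a polymer at the cell surface, and collagen IV, a trimer of alpha chains, forms a crosslinked network that gives the sheet its strength. Nidogens and the heparan sulfate proteoglycans perlecan and agrin link the networks. In the kidney tubule laminin alpha 5 is the usual alpha chain of the mature membrane, the alpha 3 alpha 4 alpha 5 collagen IV trimer is best known from the glomerulus, where its mutation causes Alport syndrome, and thickened or altered tubular basement membranes are a known feature of polycystic kidneys.

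Collagen IV genes lie in head-to-head pairs, so the members of a pair are read from neighbouring starts. Whether the shared start region bears on their levels was not tested. Col4a1 (chromosome 8, 11198423 to 11312826, minus strand, GRCm38) and Col4a2 (chromosome 8, 11312805 to 11449287, plus strand) overlap by 22 bases at their first exons. Col4a4 (chromosome 1, 82448423 to 82586849, minus strand) and Col4a3 (chromosome 1, 82586921 to 82722059, plus strand) lie 71 bases apart. Col4a6 and Col4a5 on chromosome X start 1308 bases apart. The bases at the first 2 of these junctions are shown because both genes of each pair passed in the same direction in at least 1 DOX comparison. Neither Col4a5 nor Col4a6 passed with DOX in the fit of all 16 libraries with no block. They come from the RefSeq promoter table (GRCm38.p6), and in the first line, chr8:11312801-11312830 on the plus strand, capitals mark the bases that both first exons share. In the second line, chr1:82586840-82586930 on the minus strand, capitals mark the bases between the 2 first exons.
Col4a2/Col4a1: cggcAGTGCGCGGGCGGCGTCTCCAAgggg
Col4a4/Col4a3: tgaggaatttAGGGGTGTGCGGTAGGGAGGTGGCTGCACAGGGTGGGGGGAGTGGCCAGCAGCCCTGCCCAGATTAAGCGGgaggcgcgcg
The shared stretch of Col4a1 and Col4a2 was 72.7% G and C, and the stretch between Col4a4 and Col4a3 was 69.0%. A promoter window of 300 bases, 250 before and 50 after the start, was found for 22 of the 32 genes. The GC box letters GGGCGG, searched on both strands, occurred 1 time in the window of Col4a1 and 3 times in that of Col4a2. The CCAAT letters occurred 1 time in each. The Col4a4 window held neither set of letters. Of all 32851 windows of this length in the table, 35.7% held GGGCGG and 37.4% held CCAAT, so these matches are a description of common sequence and no more.

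Total counts ranged from 9937504 to 17188295 per library. Pkd2, the targeted gene, was at 140 ± 4.24 CPM (TMM-scaled counts per library, SD over n = 4) in the absence of DOX and 52.7 ± 3.98 with it at passage 4, and at 185 ± 1.40 and 56.7 ± 8.07 at passage 7, with no overlap between the groups at either passage. These DOX labels are those of the count headers. The headers of the deposited TPM table gave another group for 12 of 16 columns, in 8 of them with the other DOX state, and the count headers were preferred since Pkd2 fits them, which leaves Pkd2 unable to check them separately. In all groups replicates 1 and 2 stood apart from replicates 3 and 4, with 5 of the 24 tested genes of the list higher in replicates 3 and 4 (Lama5, Npnt, Agrn, Lamb2 and Col7a1) and 5 lower (Fn1, Col4a4, Col4a5, Nid1 and Lama3), against 17.5% and 19.5% of all tested genes. Each group holds both kinds of replicate.

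Markers of the labelled cell type were uneven. Of 18 genes of principal cells and kidney epithelium, 10 were above 1 RPKM (CPM per kilobase of exon) in each group, among them the keratin genes Krt8 (mean over 16 libraries 910 RPKM) and Krt18 (934), the cadherin gene Cdh1 (145) and Epcam (228). The summed level of the list was 2920 to 3010 RPKM without and 2290 to 2490 with DOX at passage 4, and 3380 to 3780 and 3010 to 3290 at passage 7. Krt8 and Krt18 weigh most in this sum, at 986 and 932 RPKM without and 623 and 687 with DOX at passage 4. Krt7 was at 188 and 248. With DOX 3 of 13 tested genes of the list rose and 3 fell at passage 4 (all genes 8.45% and 9.1%). At passage 7, 2 rose and 4 fell (11.1% and 11.6%). Aqp2, the water channel that defines principal cells, had 0 counts in all 16 libraries. Of the fibroblast markers Col3a1, Lum and Thy1 had 0 counts in every library and Col1a2 had 2 counts in all. The endothelial marker Emcn and the podocyte markers Wt1 and Ptpro were also at 0. These cell types are the other usual makers of basement membrane in the kidney.

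Of the 32 genes 24 were tested, as 15316 of all genes were. The other 8 were the laminin chain genes Lama1, Lama2, Lama4 and Lamc3, the hemidesmosome collagen gene Col17a1, the Fraser complex genes Fras1 and Frem1, and the calcium-binding matrix gene Smoc2. Smoc2 had 0 counts in all 16 libraries, Lama1 had 2 counts in all, and no untested gene exceeded 10 counts in any library. The filter asked for about 0.782 CPM in 4 libraries. Of the tested genes 22 reached that level in all 16 libraries, Nid2 reached it in every library only of the passage 4 group without DOX, and Col15a1 only of the passage 7 group without DOX. The last 2 genes were tested because of the group where they were high, so their differences say little beyond that.

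Per length of a gene's merged exons, the most abundant genes over the 16 libraries were Agrn (agrin, 159 RPKM) and Col18a1 (collagen XVIII, 128). Lama5 (laminin alpha 5, 123) and Fn1 (fibronectin, 105) followed, and all of these were at percentiles 97.5 to 98.5 of the tested genes. Their order depends on the length used. The merged exons of Fn1 span 11685 bases and its longest transcript 8315, while for Lama5 both are 11388. The beta chain genes Lamb1 (55.5 RPKM), Lamb3 (36.5) and Lamb2 (35.2) and the alpha chain gene Lama3 (39.5) came next. Hspg2, which encodes perlecan, was at 25.9 RPKM, Npnt at 24.5 and Lamc1, the gamma 1 chain gene, at 18.3. Collagen IV was led by Col4a5 (18.9 RPKM), then Col4a4 (9.02) and Col4a3 (4.65). Col4a1 (2.57) and Col4a2 (1.91), the chains of the collagen IV found in nearly all basement membranes, were lower, and Col4a6 was at 0.631. The lowest tested genes were Nid2 (0.145) and Col15a1 (0.0856).

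With DOX, collagen alpha 1(IV) and alpha 2(IV), fibronectin, nidogen 1, perlecan and nephronectin transcripts fell at both passages, while the laminin alpha 3 transcript rose at both. At passage 4 edgeR's quasi-likelihood test called 14 of the 24 genes (adjusted p under 0.05 over all tested genes), beside 17.5% of all tested genes, of which 4 rose (all genes 8.45%) and 10 fell (9.1%). It called 14 at passage 7, beside 22.6% of all tested genes, of which 3 rose (11.1%) and 11 fell (11.6%). The falls at both passages include Nid2, which was tested only through its level in the passage 4 group without DOX. The median log2 fold change of the 24 genes was -0.23 at passage 4 and -0.24 at passage 7, beside 0.00059 and -0.0078 over all tested genes. The genes were chosen with earlier results of these data known. Their shares beside all genes, here and below, are thus no evidence of an enrichment. In these bulk samples, fewer cells of a kind and less RNA per cell cannot be told apart. Genes whose 4 libraries with DOX lay wholly on one side of the 4 without numbered 4 above and 10 below at passage 4, beside 10.3% and 11% of all tested genes, and 4 above and 9 below at passage 7, beside 12.4% and 12.8%. With replicate number as a block, 6 genes rose at passage 7 in place of 3, with Lama5, Lamb3 and Lamc1 added, while over all genes 2339 rose in place of 1697.

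**Figure D1:**
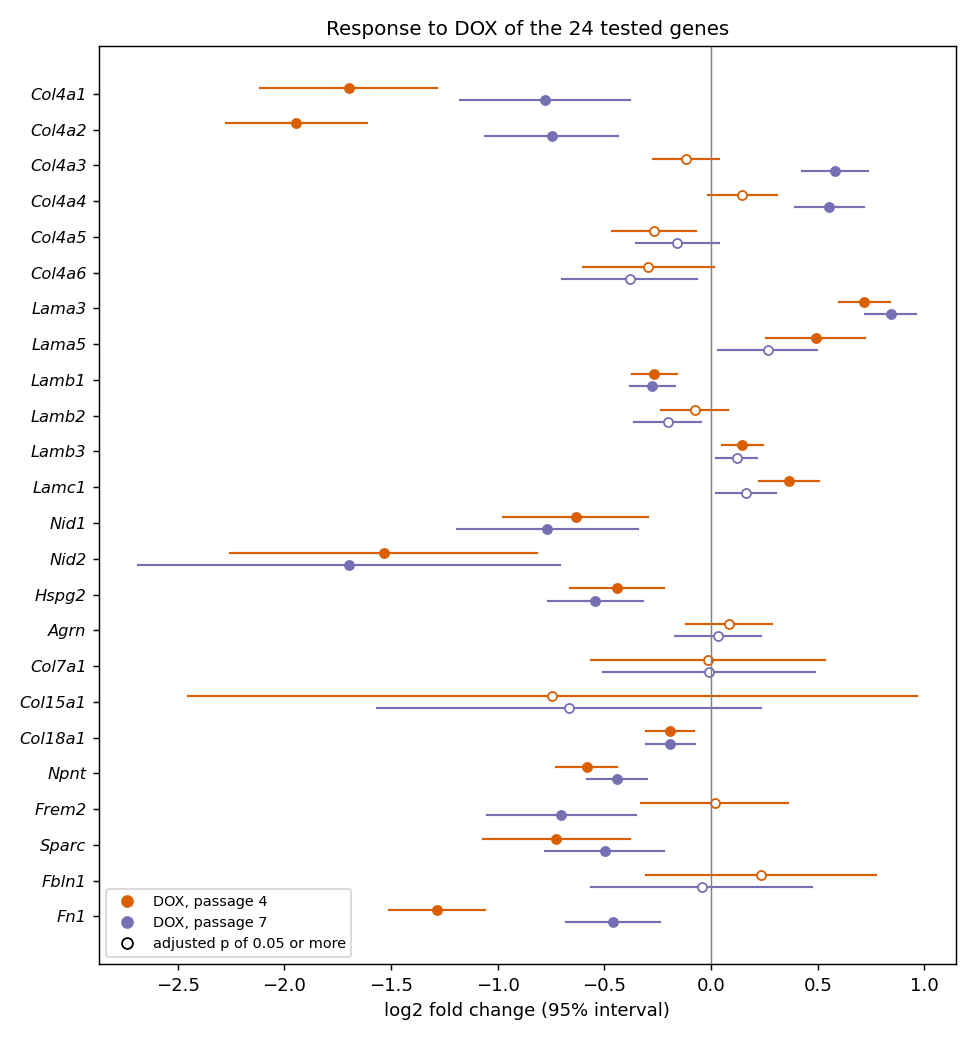
Log2 fold change with DOX (horizontal axis, with 95% intervals) of the 24 tested genes at passage 4 (orange) and passage 7 (violet), filled where the adjusted p was under 0.05. Col4a1, Col4a2, Nid2 and Fn1 lie farthest to the left at passage 4, and Lama3 lies to the right at both passages. Nid2 passed the filter only through the passage 4 group without DOX.

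Col4a1 and Col4a2 encode the chains of the most widespread collagen IV trimer. Col4a1 was at 32.8, 29.7, 27.9 and 28.6 CPM in the 4 libraries without DOX at passage 4 and at 9.54, 7.29, 10.4 and 9.65 in the 4 with it. At passage 7 it was at 24.8, 34.6, 17.18 and 18.9 CPM without DOX and at 15.6, 16.4, 10.2 and 13.7 with it. At each passage the highest library with DOX was below the lowest without, by a wide gap at passage 4 and a narrow one at passage 7, where the libraries without DOX spread most. The fall was 3.25-fold at passage 4 (log2 fold change -1.70, SE 0.20, adjusted p = 1e-05) and 1.72-fold at passage 7 (-0.78, SE 0.19, adjusted p = 0.0064).

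Col4a2, its partner, was at 25.3, 18.2, 19.3 and 18.8 CPM without DOX at passage 4 and at 5.43, 4.29, 5.16 and 6.43 with it. The libraries of passage 7 held 18.3, 17.9, 13.2 and 12.7 CPM without DOX and at 9.51, 8.24, 8.73 and 10.7 with it. The groups did not overlap at either passage, and replicate 1 without DOX at passage 4 stood above its group. Col4a2 fell 3.85-fold at passage 4 (log2 fold change -1.94, SE 0.16, adjusted p = 7.4e-08) and 1.68-fold at passage 7 (-0.75, SE 0.15, adjusted p = 0.0012). The ratio of Col4a2 to Col4a1 per length was 0.770 ± 0.0752 without and 0.654 ± 0.0792 with DOX at passage 4 (SD, n = 4), a difference that an exact 2-sided permutation test did not call (p = 0.0857, 0.147 adjusted over 12 tests). At passage 7 the ratio was 0.762 ± 0.125 and 0.774 ± 0.180 (exact permutation p = 0.914). The 22 shared bases and the antisense gene Gm15419, which shares 43 exonic bases with Col4a2, are uncertain because the strand setting of the counting is not given.

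Col4a3 and Col4a4 encode chains of the Alport trimer and went another way. At passage 4 without DOX the Col4a3 counts were 47.3, 45.9, 42.2 and 45.6 CPM, and with DOX 37.1, 40.7, 45.6 and 43.5, so the groups overlapped. At passage 7 they were 39.3, 42.4, 38.4 and 37.3 CPM without DOX and 52.7, 61.7, 58.3 and 62.8 with it, with no overlap. Col4a3 rose 1.496-fold at passage 7 (log2 fold change 0.58, SE 0.07, adjusted p = 1.3e-05). The passage 4 log2 fold change was -0.12 (SE 0.07, adjusted p = 0.32). Col4a3 shares 563 exonic bases with C430014B12Rik on the other strand.

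Col4a4, its neighbour, was at 92.9, 82.0, 80.8 and 81.1 CPM without DOX at passage 4 and at 90.9, 105.3, 92.9 and 83.1 with it. Passage 7 gave 85.7, 91.1, 80.8 and 75.3 CPM without DOX and at 114.5, 135.4, 119.4 and 119.8 with it. As for Col4a3, the groups overlapped at passage 4 and lay apart at passage 7, where Col4a4 rose 1.47-fold (log2 fold change 0.55, SE 0.08, adjusted p = 3.7e-05; at passage 4 0.15, SE 0.08, adjusted p = 0.22).

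Col4a5, the third chain of that trimer and the most abundant collagen IV transcript per length, was between 110.5 and 145.8 CPM without DOX and between 101.4 and 116.5 with it at passage 4. Its fold change on the log2 scale was -0.27 (SE 0.09, adjusted p = 0.055) at passage 4 and -0.16 (SE 0.09, adjusted p = 0.25) at passage 7. Without replicate 4 of passage 4 without DOX the first was -0.34 (adjusted p = 0.014). With replicate number as a block both values passed, with adjusted p = 0.00028 and 0.017 and the same direction. Col4a6, whose chain pairs with alpha 5(IV) in some basement membranes, was between 3.75 and 6.50 CPM in all libraries and did not pass at either passage (-0.29, SE 0.15, and -0.38, SE 0.15), except at passage 7 without replicate 3 of the group without DOX (-0.50, adjusted p = 0.016).

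Within the collagen IV transcripts, counted per length in each library, Col4a1 made up 10.0 ± 0.407% without and 3.91 ± 0.679% with DOX at passage 4, and 8.05 ± 1.82% and 4.64 ± 0.633% at passage 7 (SD, n = 4). The share of Col4a2 was 7.74 ± 0.777% and 2.55 ± 0.513% at passage 4 and 5.98 ± 0.571% and 3.52 ± 0.509% at passage 7. Col4a4 took 20.0 ± 0.902% without and 27.6 ± 1.85% with DOX at passage 4, although its own level there was 7.93 and 8.77 RPKM, and 20.1 ± 0.948% and 28.8 ± 1.74% at passage 7. Col4a5 held 48.9 ± 2.28% and 50.9 ± 2.06% at passage 4 and 53.9 ± 1.32% and 47.0 ± 2.71% at passage 7. The transcripts of the widespread chains were thus a small and, with DOX, a smaller part of collagen IV in these cells. A share moves whenever another chain of its class does, and these collagen IV shares were not tested.

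**Figure D2:**
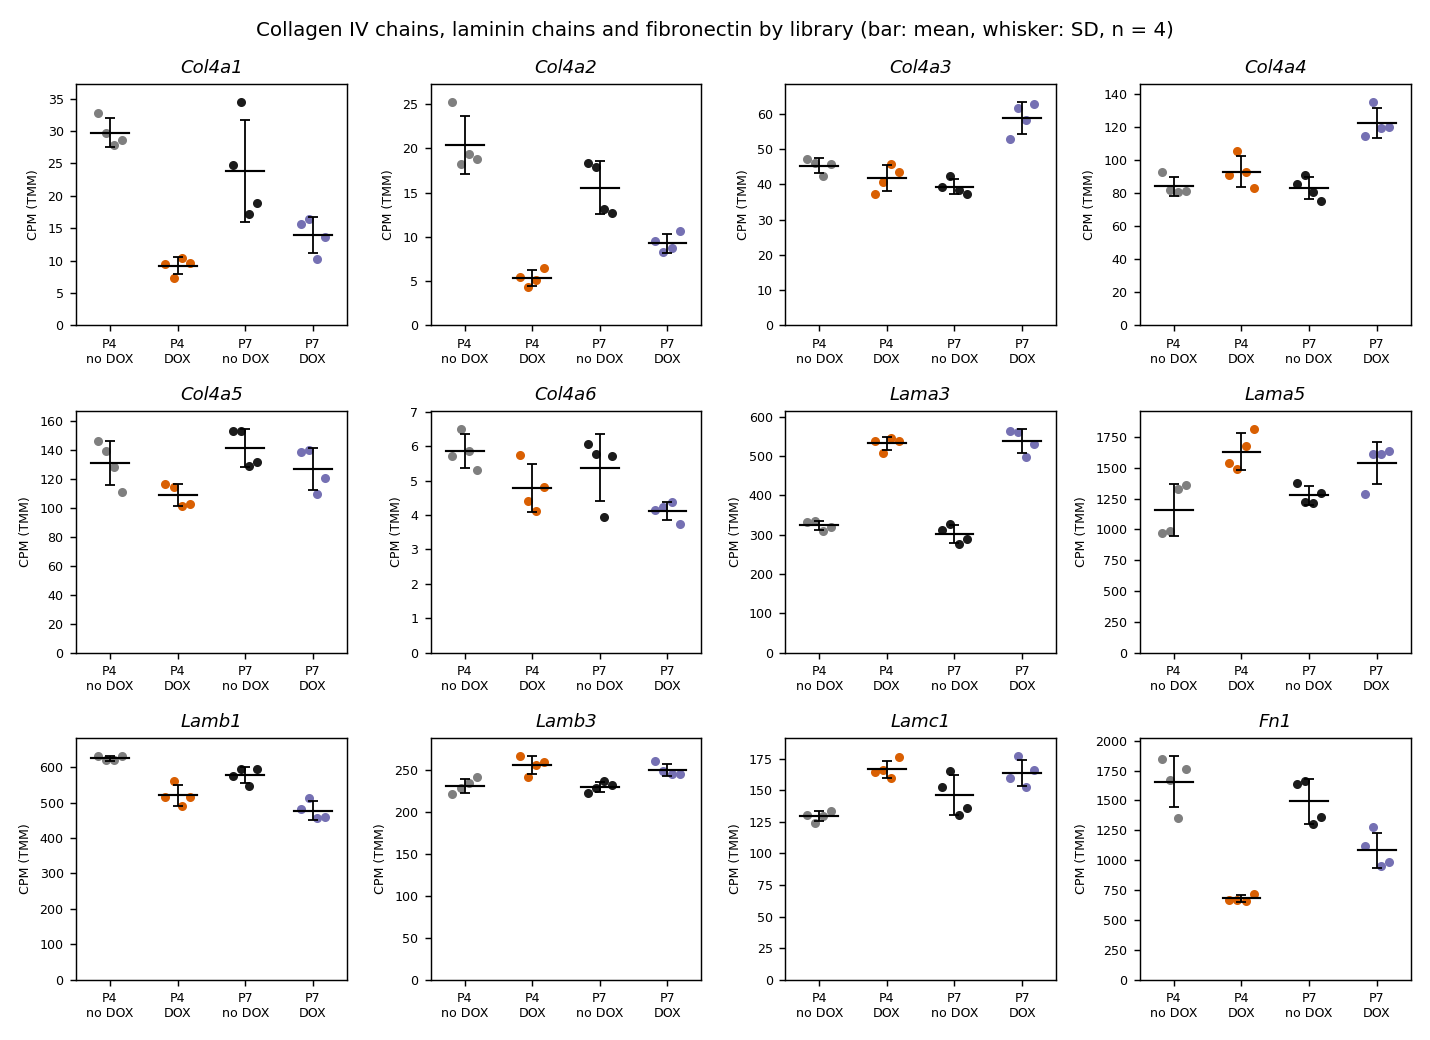
Level in CPM (vertical axis, from 0) in each of the 16 libraries for the 6 collagen IV chains, 5 laminin chains and Fn1, by passage and DOX, with the mean as a bar and the SD as a whisker (n = 4). Col4a1, Col4a2 and Fn1 are lower with DOX at both passages, more so at passage 4, Lama3 is higher at both, and Col4a3 and Col4a4 lie apart only at passage 7.

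Of 10 listed laminin chains 6 were tested. With DOX 4 of them rose and 1 fell at passage 4 (median log2 fold change 0.26), and 1 rose and 1 fell at passage 7 (0.14). Over all tested genes 8.45% rose and 9.1% fell at passage 4, and 11.1% and 11.6% at passage 7. The laminin counts at passage 7 are near those shares. Lama3 encodes laminin alpha 3, a chain of the laminins found at hemidesmosomes of stratified and injured epithelia. It was at 332.2, 334.0, 309.1 and 320.3 CPM without DOX at passage 4 and at 538.7, 507.2, 545.3 and 539.5 with it. In passage 7 cells it was at 311.8, 327.1, 275.7 and 288.4 CPM without DOX and at 564.5, 561.4, 498.8 and 531.7 with it. The libraries with DOX lay far above the others and close to each other at both passages. Lama3 rose 1.64-fold at passage 4 (log2 fold change 0.72, SE 0.06, adjusted p = 6.2e-08) and 1.79-fold at passage 7 (0.84, SE 0.06, adjusted p = 7.2e-09). An antisense gene, Gm29200, shares 197 exonic bases with it.

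Lama5 was between 967.3 and 1359 CPM without DOX at passage 4 and between 1488 and 1818 with it, and it rose 1.40-fold (log2 fold change 0.49, SE 0.11, adjusted p = 0.0045). At passage 7 the ranges, 1215 to 1380 and 1284 to 1641 CPM, overlapped through replicate 1 with DOX (log2 fold change 0.27, SE 0.11, adjusted p = 0.097). Without that library the adjusted p was 0.031 (log2 fold change 0.34), and with replicate number as a block it was 0.044 (0.26). Lama5 was also higher in replicates 3 and 4 than in 1 and 2, by 0.20 on the log2 scale, and the DOX response at passage 4 was 0.63 in the first pair and 0.38 in the second.

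Lamc1, the gamma chain gene of most laminins, was between 124.1 and 133.5 CPM without DOX and between 159.5 and 176.0 with it at passage 4, and it rose by a log2 fold change of 0.36 (SE 0.07, adjusted p = 0.00075). For passage 7 the value was 0.16 (SE 0.07, adjusted p = 0.091). It passed with replicate number as a block (0.028) and without replicate 2 of the group without DOX (0.23, adjusted p = 0.017). Lamb3, the beta chain gene of the alpha 3 laminin, rose by 0.15 at passage 4 (SE 0.05, adjusted p = 0.032). That call was lost without any one of 6 of the 8 passage 4 libraries (P4 without DOX replicates 1, 2 and 3, and with DOX replicates 1, 3 and 4), with adjusted p up to 0.11. It was also lost without TMM (adjusted p = 0.075), without the filter (0.14) and in a fit of the passage 4 libraries alone (0.078). At passage 7 Lamb3 was at 0.12 (SE 0.05, adjusted p = 0.067, and 0.041 with the block), again with no overlap between groups.

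Lamb1, the beta chain gene of fetal and many adult laminins, fell at both passages by nearly the same amount, from 619.0 to 631.0 CPM without DOX to 489.0 to 560.0 with it at passage 4 and from 546.7 to 595.7 to 456.8 to 512.9 at passage 7. The log2 fold changes were -0.27 (SE 0.05, adjusted p = 0.0011) and -0.27 (SE 0.05, adjusted p = 0.00065). Lamb2, the beta chain gene typical of mature basement membrane, did not pass, with -0.08 (SE 0.07, adjusted p = 0.54) at passage 4 and -0.20 (SE 0.07, adjusted p = 0.058, and 0.0064 with the block) at passage 7.

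Shares within the laminin chain classes followed these genes. Lama5 made up most of the alpha chain transcripts per length, 76.8 ± 3.83% without and 74.2 ± 1.37% with DOX at passage 4 and 80.0 ± 1.44% and 72.8 ± 3.17% at passage 7 (SD, n = 4). Lama3 made up nearly all of the rest, 23.2 ± 3.82% and 25.8 ± 1.37% at passage 4 (exact 2-sided permutation p = 0.314) and 20.0 ± 1.43% and 27.2 ± 3.17% at passage 7 (p = 0.0286, exact). At passage 4 without DOX the Lama3 share was 26.7% and 26.3% in replicates 1 and 2 and 19.8% and 20.0% in replicates 3 and 4, so the spread there lay between the replicate pairs. Taken within replicate numbers, the exact sign-flip p for this share was 0.125 at each passage, the smallest that 4 pairs can give.

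Among the beta chains the share of Lamb3 was higher with DOX, 30.9 ± 1.40% against 26.1 ± 0.580% at passage 4 and 31.9 ± 1.21% against 26.6 ± 0.986% at passage 7, and that of Lamb1 was lower, 41.8 ± 2.23% against 47.1 ± 1.96% and 40.6 ± 1.22% against 44.6 ± 1.04%. Each of these 4 had an exact permutation p of 0.0286, the smallest that 4 against 4 libraries allow, and 0.0572 after adjustment over 12 tests, as had the passage 7 share of Lama3, so none passed the correction although the groups did not overlap. The share of Lamb2 was 26.9 ± 2.25% and 27.3 ± 1.66% at passage 4 (exact permutation p = 0.657). At passage 7 it was 28.8 ± 0.569% and 27.6 ± 1.57% (exact permutation p = 0.200). The level of these shares depends on the length used. Per longest transcript Lamb1 held 55.6% without and 50.1% with DOX at passage 4, and 53.2% and 48.8% at passage 7. Lamb3 then held 24.4% and 29.3%, and 25.1% and 30.3%, so the directions stayed. Lamb2 held 20.0% and 20.6%, and 21.7% and 20.9%.

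**Figure D3:**
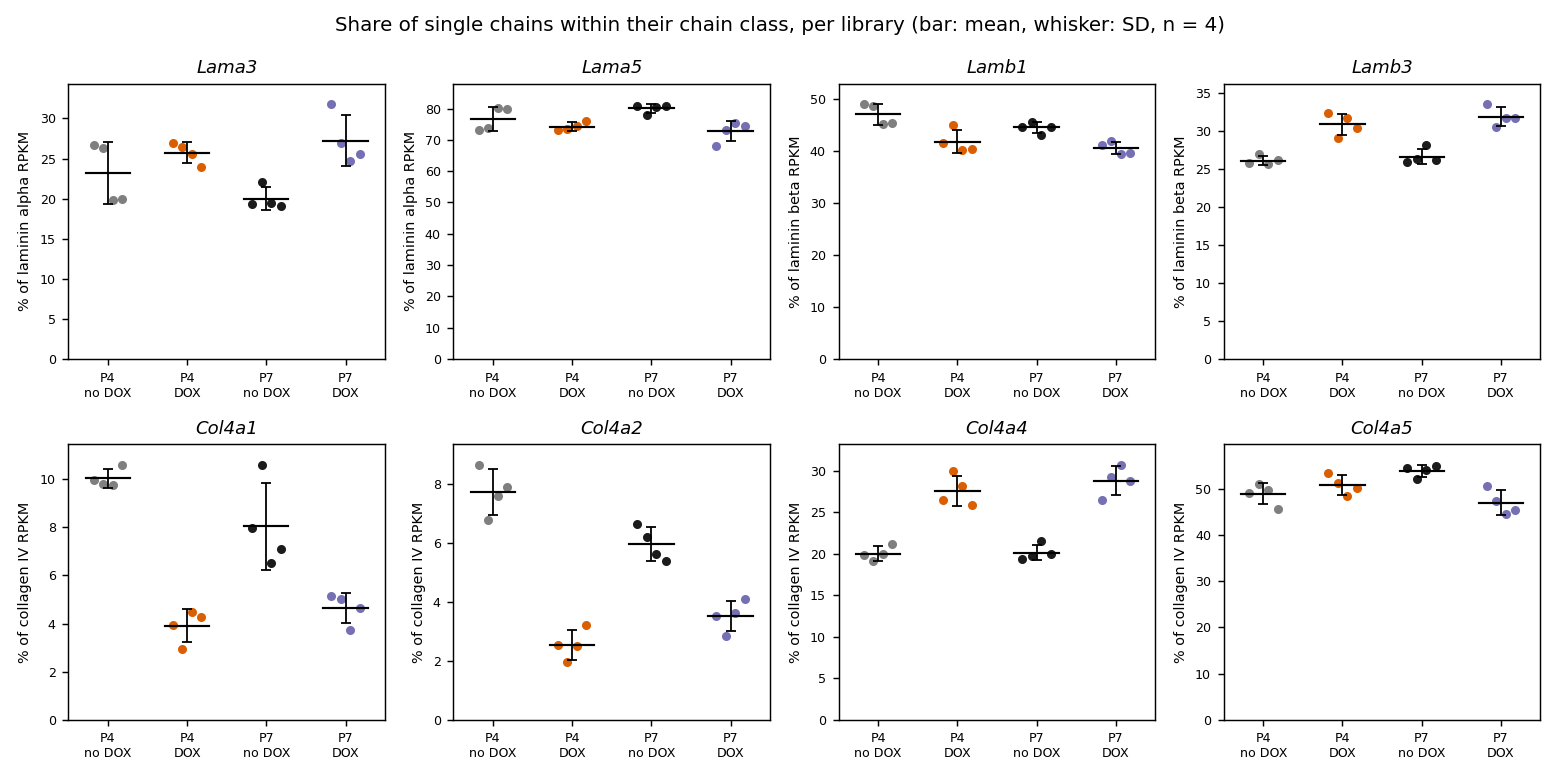
Share (vertical axis, %, from 0) of single chains in the summed RPKM of their class, laminin alpha, laminin beta or collagen IV, in each library, with the mean and SD (n = 4). Lamb3 is higher and Lamb1, Col4a1 and Col4a2 are lower with DOX at both passages, and Lama3 lies apart only at passage 7.

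The genes that join the networks fell, apart from agrin. Nid1 encodes nidogen 1, which binds both laminin gamma 1 and collagen IV. It was at 25.2, 27.3, 16.5 and 20.4 CPM without DOX at passage 4 and at 15.04, 14.6, 12.7 and 14.96 with it. The passage 7 values were 7.10, 7.67, 4.33 and 6.82 CPM without DOX and at 3.88, 4.93, 3.18 and 3.30 with it. The passage 4 groups lay apart, and at passage 7 they overlapped through replicate 3 without DOX. Nid1 fell 1.55-fold at passage 4 (log2 fold change -0.63, SE 0.16, adjusted p = 0.0097) and 1.70-fold at passage 7 (-0.77, SE 0.20, adjusted p = 0.0098). It was lower in replicates 3 and 4 by 0.36 on the log2 scale, and its DOX response at passage 4 was -0.82 in replicates 1 and 2 and -0.41 in replicates 3 and 4. The antisense gene Gm48682 shares 143 exonic bases with Nid1.

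Nid2, the gene of the related nidogen 2, rested on few counts, 18 to 25 in the libraries without DOX at passage 4 and 2 to 6 in those with DOX at passage 7. It passed the filter only through the passage 4 group without DOX, so its fall at passage 4 says little beyond that. In CPM it was at 1.58, 1.33, 1.67 and 1.72 without DOX and at 0.310, 0.588, 0.516 and 0.724 with it at passage 4. At passage 7 the values were 1.18, 0.316, 0.482 and 0.802 CPM without DOX and 0.176, 0.141, 0.374 and 0.127 with it. The groups lay apart at passage 4 and overlapped at passage 7, where replicate 1 without DOX was the highest. The log2 fold change was -1.54 (SE 0.34, adjusted p = 0.0036) at passage 4 and -1.70 (SE 0.47, adjusted p = 0.013) at passage 7. Without replicate 1 of passage 7 without DOX, the latter was -1.27 with an adjusted p of 0.082. Nid2 shares 437 exonic bases with the protein-coding gene Rtraf on the other strand.

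Hspg2 was between 419.7 and 472.8 CPM without DOX and between 292.9 and 362.6 with it at passage 4, and between 345.9 and 494.4 and between 264.2 and 342.7 at passage 7. It fell at both passages (log2 fold change -0.44, SE 0.10, adjusted p = 0.0066, and -0.54, SE 0.10, adjusted p = 0.0011). Agrn, the other large heparan sulfate proteoglycan gene, overlapped between groups at both passages (log2 fold change 0.08, 95% interval -0.12 to 0.29, and 0.03, 95% interval -0.17 to 0.23).

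Of the other collagens Col18a1, whose protein carries the endostatin fragment, fell slightly at both passages (log2 fold change -0.19, SE 0.05, adjusted p = 0.018 and 0.015), with no overlap between groups. The call at passage 4 was lost without replicate 3 or replicate 4 of the group without DOX (adjusted p = 0.068 and 0.064) and in a fit of the passage 4 libraries alone (0.063). The call at passage 7 was lost without replicate 3 or replicate 4 with DOX (adjusted p = 0.059 and 0.063). Col7a1, which encodes the collagen of anchoring fibrils, showed log2 fold changes of -0.01 (SE 0.26) and -0.01 (SE 0.23). Col15a1, a collagen of the outer basement membrane, gave -0.74 (SE 0.81) and -0.66 (SE 0.43) on 0 to 20 counts per library, and neither passed.

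Npnt encodes nephronectin, a ligand of integrin alpha 8 beta 1 in the developing kidney. It was at 126.7, 119.8, 130.6 and 124.6 CPM without DOX at passage 4 and at 83.4, 74.7, 94.3 and 83.0 with it. In the later passage it was at 145.5, 166.2, 176.1 and 163.2 CPM without DOX and at 117.9, 113.9, 124.7 and 122.8 with it. All libraries with DOX lay below those without, and Npnt fell 1.498-fold (log2 fold change -0.58, SE 0.07, adjusted p = 6.7e-06) and 1.36-fold (-0.44, SE 0.07, adjusted p = 9.1e-05).

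Frem2 encodes a protein of the Fraser complex, which anchors epithelium to the matrix in the embryo. It was at 11.4, 13.2, 12.5 and 15.3 CPM without DOX at passage 4 and at 10.9, 19.6, 11.1 and 11.02 with it. The libraries of passage 7 held 16.5, 17.24, 16.3 and 18.2 CPM without DOX and at 8.72, 12.3, 10.5 and 10.2 with it. At passage 4 the groups overlapped, replicate 2 with DOX being the highest of all (log2 fold change 0.02, SE 0.16, adjusted p = 0.96). At passage 7 they lay apart and Frem2 fell 1.63-fold (-0.70, SE 0.17, adjusted p = 0.0046).

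Fn1 encodes fibronectin, which is assembled into fibrils beside the basement membrane. It was at 1847, 1668, 1355 and 1763 CPM without DOX at passage 4 and at 668.1, 671.0, 663.2 and 720.1 with it. Passage 7 gave 1636, 1667, 1304 and 1361 CPM without DOX and at 1116, 1278, 956.1 and 986.8 with it. The libraries with DOX were below all others at both passages and close together at passage 4. Fn1 fell 2.44-fold (log2 fold change -1.28, SE 0.11, adjusted p = 2.1e-07) and 1.38-fold (-0.46, SE 0.10, adjusted p = 0.0039). Apol7d, annotated as antisense, shares 292 exonic bases with it.

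Sparc encodes a small secreted protein that binds collagen IV. It was at 5.80, 5.17, 5.79 and 6.64 CPM without DOX at passage 4 and at 3.02, 3.41, 4.56 and 3.22 with it. In passage 7 cells it was at 15.7, 20.0, 19.6 and 16.4 CPM without DOX and at 16.1, 11.5, 11.9 and 11.5 with it. The groups lay apart at passage 4 and overlapped at passage 7 through replicate 1 with DOX. The fall was 1.65-fold (log2 fold change -0.73, SE 0.16, adjusted p = 0.0039) and 1.41-fold (-0.50, SE 0.13, adjusted p = 0.0098). Fbln1, the gene of the linker protein fibulin-1, was between 1.02 and 2.93 CPM and did not pass at either passage.

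**Figure D4:**
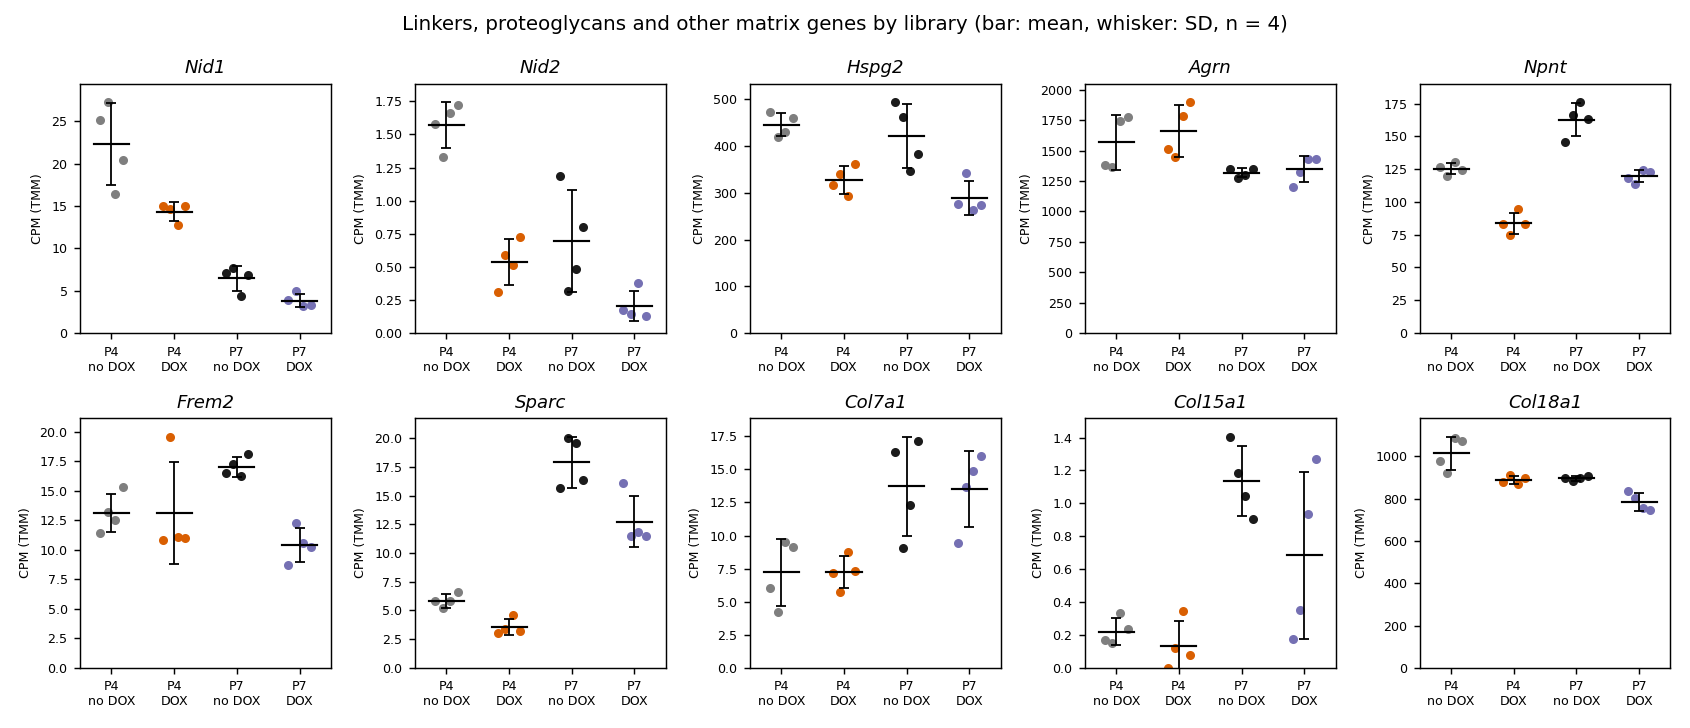
Level in CPM (vertical axis, from 0) in each library for nidogens, proteoglycans, Npnt, Frem2, Sparc and 3 other collagens, with the mean as a bar and the SD as a whisker (n = 4). Npnt and Hspg2 are lower with DOX at both passages, Nid1 is lower and Sparc higher at passage 7 than at passage 4, and Frem2 differs with DOX at passage 7.

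Whether the DOX response itself differed between the passages was tested as an interaction, for which 1.19% of all tested genes passed, 0.516% upward (response at passage 7 above that at passage 4) and 0.679% downward. Of the 24 genes 3 passed upward and 0 downward (at an unadjusted p under 0.05, 7 in both directions together, beside 11.5% of all tested genes). DESeq2 called 5 upward and 0 downward, and 142 and 203 of all genes. The Col4a2 response was higher at passage 7 by a log2 value of 1.196 (SE 0.22, adjusted p = 0.0081) and Fn1 by 0.82 (SE 0.15, adjusted p = 0.0088), each a smaller fall. For Col4a3 the difference was 0.70 (SE 0.10, adjusted p = 0.0020), between no call at passage 4 and a rise at passage 7. Col4a1 followed Col4a2 with 0.92 (SE 0.27) but did not pass (adjusted p = 0.13). It passed without replicate 2 of passage 7 without DOX (adjusted p = 0.015), by DESeq2 (0.036) and with the replicate pair as a term (0.029). Col4a4 had 0.41 (SE 0.11, adjusted p = 0.086), which passed with replicate number as a block (0.0039) and without replicate 2 of passage 4 with DOX (0.033). Frem2 had -0.72 (SE 0.23, adjusted p = 0.18), and 0.025 with the block. For Lama3, Nid1, Hspg2, Npnt and Lamb1 the difference was between -0.13 and 0.14 and did not pass.

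For passage 7 against passage 4 without DOX, 7 of the 24 genes (29.2%) passed, a share near the 25.6% of all tested genes, with 4 higher at passage 7 (all genes 14.3%) and 3 lower (11.3%). The 7 include Col15a1 and Nid2, each tested only through the group of this comparison where it was high. With replicate number as a block 7 were lower in place of 3 (all genes 2660 in place of 1735), with Col4a2, Col4a3, Lamb1 and Agrn added. The block also made 6 higher in place of 4 (all genes 3005 in place of 2187), with Lamc1 and Frem2 (0.38, adjusted p = 0.023) added. Sparc was 3.06-fold higher at passage 7 (log2 fold change 1.61, SE 0.14, adjusted p = 3e-07), with 5.17 to 6.64 CPM in the earlier and 15.7 to 20.0 in the later cells. Nid1 was 3.44-fold lower (-1.78, SE 0.18, adjusted p = 1.3e-06), from 16.5 to 27.3 CPM down to 4.33 to 7.67. Npnt was 1.30-fold higher (0.38, SE 0.07, adjusted p = 0.00049). Sparc, Nid1 and Npnt did not overlap between the passages.

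Col7a1 was at 6.05, 4.21, 9.52 and 9.14 CPM at passage 4 and at 16.3, 9.09, 12.3 and 17.1 at passage 7 without DOX, overlapping through 1 library, and it was higher at passage 7 by a log2 value of 0.91 (SE 0.25, adjusted p = 0.013). It was higher in replicates 3 and 4 by 0.42 on the log2 scale. Col15a1 went from 0.166, 0.148, 0.333 and 0.234 CPM to 1.40, 1.19, 1.04 and 0.903 without DOX, on 2 to 5 and 9 to 19 counts (log2 fold change 2.31, SE 0.54, adjusted p = 0.0044). Nid2 was lower at passage 7 (-1.16, SE 0.33, adjusted p = 0.016), a call lost without replicate 2 (adjusted p = 0.058) or replicate 3 (0.051) of the later group. The filter kept Col15a1 through its high level at passage 7 and Nid2 through its high level at passage 4, so these calls say little beyond that. Col18a1 was lower as well (-0.18, SE 0.05, adjusted p = 0.020), a call lost without replicate 3 or 4 of passage 4 (adjusted p = 0.074 and 0.069) or replicate 2 of passage 7 (0.051). No collagen IV or laminin gene passed in this comparison in the fit with no block. With replicate number as a block Col4a2 (adjusted p = 0.014), Col4a3 (0.029) and Lamb1 (0.038) were lower and Lamc1 higher (0.019), and Col4a2 also passed by DESeq2 (0.048). With no block and without replicate 2 of passage 7, the library highest in Col4a1, 3 of these genes passed: Col4a1 (-0.55, adjusted p = 0.016), Col4a2 (-0.46, 0.042) and Col4a3 (-0.24, 0.042). Col4a2 also passed without replicate 1 of passage 7 (0.034), Col4a3 without replicate 3 of passage 4 (0.043), and Lamc1 without replicate 3 or 4 of passage 7 (0.22, adjusted p = 0.021, and 0.21, 0.043). Agrn was lower without replicate 1 or 2 of passage 4 (-0.31, adjusted p = 0.034 and 0.031).

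With DOX in both groups, 13 of the 24 genes passed, beside 34.1% of all tested genes, with 9 higher at passage 7 (all genes 18.3%) and 4 lower (15.8%). This comparison shares its libraries with the DOX comparisons above and is no separate support for them. Sparc (log2 fold change 1.84, SE 0.15), Nid1 (-1.91, SE 0.19), Npnt (0.52, SE 0.07), Col7a1 (0.92, SE 0.25), Col15a1 (2.39, SE 0.64), Col18a1 (-0.18, SE 0.05) and Nid2 (-1.32, SE 0.49) passed in the same direction as without DOX. Col4a2 (0.81, SE 0.16), Fn1 (0.67, SE 0.11), Col4a1 (0.60, SE 0.20), Col4a3 (0.50, SE 0.07) and Col4a4 (0.39, SE 0.08) were higher and Agrn lower (-0.30, SE 0.10), and did not pass without DOX. No laminin gene passed with DOX in the fit with no block. With replicate number as a block Lamb1 (-0.12, adjusted p = 0.023) and Frem2 (-0.33, 0.044) were lower and Col4a5 higher (0.22, 0.001), and Lamb1 also passed by DESeq2 (0.049). With no block Lamb1 passed without replicate 3 of passage 4 or replicate 2 of passage 7 (-0.15, adjusted p = 0.036, and -0.16, 0.029), as did Col4a5 without replicate 3 of passage 7 (0.29, 0.028) and Hspg2 without replicate 2 of passage 7 (-0.27, 0.047). The call of Col4a1 was lost without any one of 5 of the 8 libraries compared (passage 4 replicates 1 and 2, passage 7 replicates 1, 2 and 4), that of Nid2 without any one of 6 (passage 4 replicates 2, 3 and 4, passage 7 replicates 1, 2 and 4), that of Agrn without passage 4 replicate 3 or 4 or passage 7 replicate 1, and that of Col18a1 without passage 7 replicate 3 or 4. Their adjusted p-values then ran up to 0.096, 0.11, 0.078 and 0.060. Without the filter the calls of Col4a1 (adjusted p = 0.081), Nid2 (0.077) and Agrn (0.053) were lost too, as was that of Nid2 by DESeq2 (0.06).

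**Figure D5:**
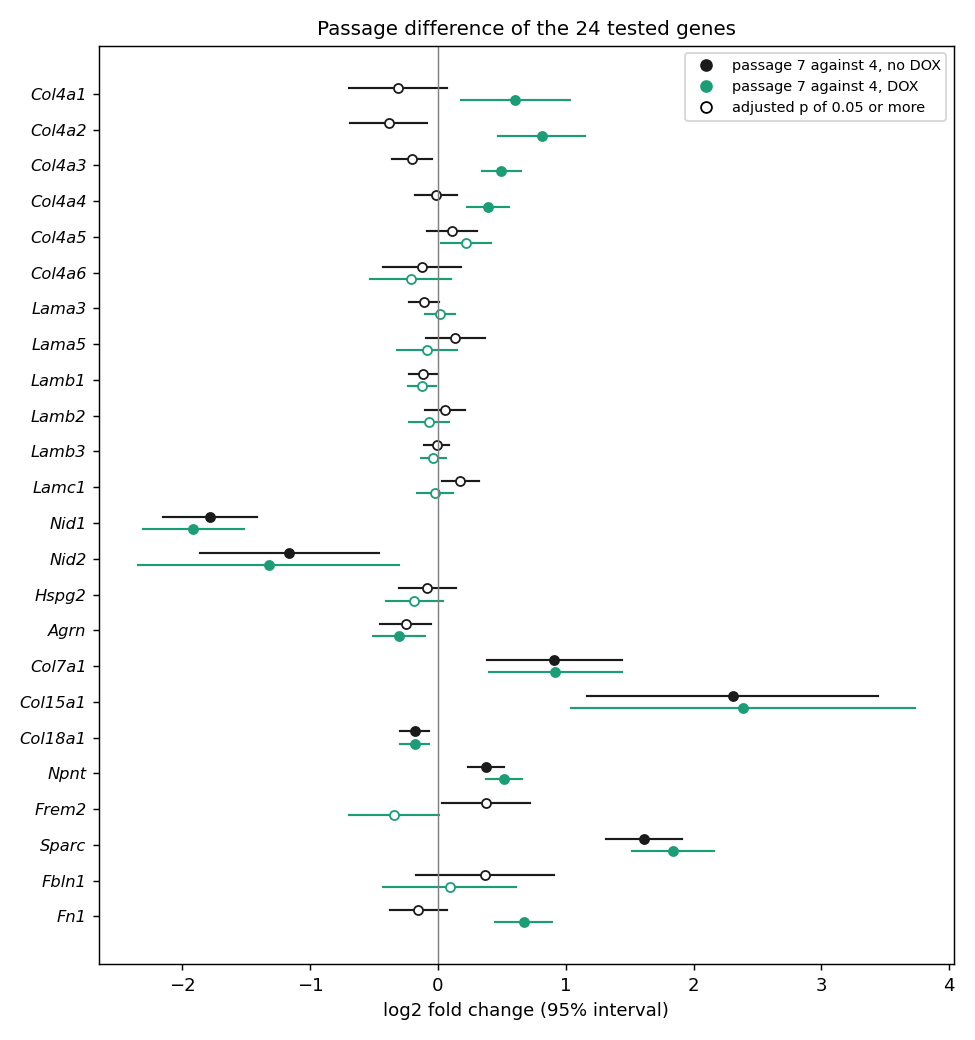
Log2 fold change of passage 7 against passage 4 (horizontal axis, with 95% intervals) of the 24 tested genes without DOX (black) and with DOX (green), filled where the adjusted p was under 0.05. Nid1 and Nid2 lie to the left and Sparc, Col15a1 and Col7a1 to the right in both states, while Col4a1, Col4a2, Col4a3, Col4a4 and Fn1 are filled only with DOX. Nid2 passed the filter only through passage 4 without DOX, and Col15a1 only through passage 7 without DOX.

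Other genes of the same matrix were listed by function, with earlier results of these data known, so their counts are no evidence of an enrichment. Receptors of the basement membrane moved both ways with DOX, with 4 higher and 4 lower of 17 tested at passage 4 (median log2 fold change 0.04) and 6 higher and 5 lower at passage 7 (-0.06). The shares of all tested genes were 8.45% higher and 9.1% lower at passage 4, and 11.1% and 11.6% at passage 7. Itga6, of an integrin subunit that binds laminin, rose by 0.61 (SE 0.05, adjusted p = 6.5e-08) and 0.35 (SE 0.05, adjusted p = 3.3e-05). The syndecan gene Sdc1 rose by 0.55 (SE 0.07) and 0.26 (SE 0.07), and Sdc4 fell by 0.32 (SE 0.06) and 0.19 (SE 0.06). Itgav fell by 0.35 (SE 0.10) and 0.50 (SE 0.10). The laminin alpha 5 receptor gene Bcam rose at passage 4 (0.41, SE 0.07) and was at -0.02 (SE 0.07) at passage 7. Itga1, of the collagen IV receptor, was at -0.30 (SE 0.10, adjusted p = 0.051) at passage 4 and fell by 1.082 (SE 0.11, adjusted p = 1.2e-06) at passage 7. Itga7 was at 0.40 (SE 0.15, adjusted p = 0.075) at passage 4 and rose by 0.75 (SE 0.14) at passage 7. The difference between the passages passed for Itga1 (-0.78, adjusted p = 0.013) and Bcam (-0.43, 0.025) and not for Itga7 (0.34, 0.58).

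Of 15 tested enzymes and chaperones of collagen synthesis, 2 (all genes, either direction, 17.5%) fell at passage 4, the prolyl hydroxylase gene P3h1 (-0.67, SE 0.13) and the collagen chaperone gene Serpinh1 (-0.24, SE 0.06), 1 (all genes 22.6%) fell at passage 7, Crtap (-0.27, SE 0.08), and the rest did not pass. Of 17 other tested basement membrane proteins and crosslinkers 5 fell at passage 4 and no other passed, and 5 fell and 3 rose at passage 7. Beside these stand 9.1% of all tested genes lower at passage 4, and 11.6% lower and 11.1% higher at passage 7. Ntn4, the gene of the laminin-binding netrin 4, fell by 1.57 (SE 0.11, adjusted p = 9.6e-09) and 1.00 (SE 0.10, adjusted p = 1.4e-06). Tinagl1, a matricellular gene, fell by 0.63 (SE 0.05) and 0.53 (SE 0.05). Ecm1 fell by 0.31 (SE 0.08) and 0.46 (SE 0.08). Loxl1 fell at passage 4 (-0.61, SE 0.13) and was at -0.06 (SE 0.12) at passage 7. The fibulin gene Fbln2 was at 0.36 (SE 0.13, adjusted p = 0.057) at passage 4 and rose by 1.33 (SE 0.12, adjusted p = 9.3e-07) at passage 7, and the crosslinking enzyme gene Loxl4 was at 0.19 (SE 0.12) and rose by 0.99 (SE 0.12). The difference between the passages passed for Fbln2 (0.97, adjusted p = 0.0099) and Loxl4 (0.79, 0.025) and not for Loxl1 (0.54, 0.18).

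Of 19 tested matrix proteases and inhibitors 3 rose and 9 fell at passage 4 (median log2 fold change -0.25), and 4 rose and 6 fell at passage 7 (-0.18). Among all tested genes 8.45% rose and 9.1% fell at passage 4, and 11.1% and 11.6% at passage 7. The urokinase gene Plau fell by 0.76 (SE 0.07, adjusted p = 1.6e-07) and 1.03 (SE 0.07, adjusted p = 3.3e-09). The heparanase gene Hpse rose by 1.23 (SE 0.18) and 0.85 (SE 0.16), and the membrane-type metalloprotease gene Mmp14 by 0.29 (SE 0.04) and 0.32 (SE 0.04). Mmp7 fell by 0.27 (SE 0.09, adjusted p = 0.045) and 0.96 (SE 0.10), and the tissue plasminogen activator gene Plat by 0.67 (SE 0.11) and 1.07 (SE 0.11). The inhibitor gene Timp3 rose by 0.71 at passage 7 (SE 0.09, adjusted p = 1.7e-05) and fell by 0.56 at passage 4 (SE 0.09, adjusted p = 0.00025). The difference between the passages passed for Timp3 (1.265, adjusted p = 9e-05) and Mmp7 (-0.68, 0.013). It did not pass for Plau (-0.27, 0.21), Plat (-0.40, 0.30), Hpse (-0.38, 0.61) or Mmp14 (0.03, 0.93).

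Of 22 interstitial matrix genes 10 were tested, with 1 higher and 4 lower at each passage. Higher were 8.45% of all tested genes at passage 4 and 11.1% at passage 7, so the count of 1 is near that share. Lower were 9.1% and 11.6%. Thbs1, which encodes thrombospondin 1, fell by 0.85 (SE 0.10) and 0.67 (SE 0.10), Tnc, the tenascin-C gene, by 1.72 (SE 0.28) and 1.71 (SE 0.28), and Col16a1 by 1.00 (SE 0.21) and 0.99 (SE 0.17). Dcn, the decorin gene, rose by 1.52 (SE 0.40) and 1.15 (SE 0.26) at a low level (mean 0.264 RPKM); it is also 1 of the fibroblast markers. These values stand beside a fall of leukocyte marker transcripts, whose summed level was 14.3 to 18.2 RPKM without and 7.20 to 12.9 with DOX at passage 4 and 27.5 to 34.5 and 14.8 to 17.4 at passage 7. Of 8 leukocyte markers 2 were above 1 RPKM, Cd68 and Csf1r, and the macrophage markers Itgam and Adgre1 were at 0 in all libraries. The podocyte sum also fell with DOX, from 11.4 to 14.0 RPKM to 6.59 to 7.93 at passage 4, with 2 of 6 markers above 1 RPKM, among them Synpo. The summed fibroblast markers were at 7.22 to 10.8 RPKM without and 7.81 to 9.20 with DOX at passage 4, and at 5.84 to 8.31 and 7.15 to 9.33 at passage 7, with overlap at both. The part of these markers in the matrix results was not tested.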

How the data were processed

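Poly(A) RNA of 16 libraries was sequenced in pairs of 75 bp reads from strand-marking libraries and aligned with STAR 2.6.0c to GRCm38.p6, per the labels' protocols. The authors deposited raw counts per gene and TPM values; the counting tool, its strand setting and the making of the TPM values are not given in the sources used here. TPM served only to compare column headers. All 55536 identifiers matched GENCODE M21, which gave symbols, positions and exon lengths for RPKM.

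Genes were filtered with filterByExpr, scaled by TMM and fitted over all 16 libraries with edgeR 4.0.16's robust quasi-likelihood test in R 4.3.3 (1 mean per group, 12 residual degrees of freedom), with Benjamini-Hochberg adjustment over 15316 genes and a threshold of 0.05. SE values are the log2 fold change over the root of F. Shares and ratios were tested by exact permutation. DESeq2 1.42.0 and other settings were alternatives. The steps were tested on simulated data.

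The members and lists were chosen with earlier results of these data known. All members are named; values in every library are given for those past the threshold with DOX, or with passage without DOX, by at least 0.5 (log2), and for Col4a1 and Col4a2. Listed genes named are up to 4 per list by adjusted p; some are not reported here.

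Deviations from the group means correlated at 0.21 to 0.42 between libraries of 1 replicate number. The fit with replicate number as a block is given where it changed a call. Correlations were 0.21 to 0.45 within replicates 1 and 2 or 3 and 4 and -0.39 to -0.20 across. They thus show the split of replicates 1 and 2 from 3 and 4 and no closer pairing by number. A block by number takes up this split as well. The split comes from these values, and no label states it or a pairing by number. No replicates were duplicates (chi-square per degree of freedom 1.84 to 18.5). The values were 1.84 to 4.57 between replicates 1 and 2 or 3 and 4, and 9.98 to 18.5 across. The fit with no block holds no term for this split, and the permutation tests treat the 4 libraries of a group as exchangeable.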

Additional observations from a re-analysis of the deposited data

Results flagged for a closer look

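A single library stood apart from the other 3 of its group, by Dixon's criterion, in 10 of 96 groups of 4 over the 24 tested genes, where chance flags about 1 in 20. At passage 4 without DOX replicate 1 was high in Col4a2 (25.3 CPM, the others 18.2 to 19.3) and in Col4a4 (92.9, the others 80.8 to 82.0). At passage 4 with DOX replicate 2 was high in Frem2 (19.6 CPM, the others 10.9 to 11.1) and replicate 4 in Fn1 (720.1, the others 663.2 to 671.0). At passage 7 without DOX replicate 3 was low in Col4a6 (3.93 CPM, the others 5.72 to 6.06) and replicate 2 high in Fbln1 (2.93, the others 1.40 to 1.53). With DOX at passage 7 replicate 1 was low in Lama5 (1284 CPM, the others 1613 to 1641) and Lamb2 (182.0, the others 202.7 to 205.2) and high in Sparc (16.1, the others 11.5 to 11.9), and replicate 2 was high in Hspg2 (342.7, the others 264.2 to 275.8). Without these libraries Col4a6 and Lama5 passed with DOX at passage 7 (adjusted p = 0.016 and 0.031), and no other of these 10 genes' DOX calls changed at that passage or at passage 4.

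The DOX response differed between the passages, by the interaction test, for Col4a2 (1.196 on the log2 scale, passage 7 minus passage 4), Fn1 (0.82) and Col4a3 (0.70).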

How the results depend on the processing

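Of 1962 alternative values for 120 results of single genes none reversed a call, 40 fell below the threshold and 65 newly passed it. Calls that held in every alternative run were 12 of 14 for DOX at passage 4 (not Lamb3 and Col18a1), 12 of 14 at passage 7 (not Nid2 and Col18a1), 3 of 3 for the difference of responses, 5 of 7 for passage without DOX (not Nid2 and Col18a1) and 9 of 13 with DOX (not Col4a1, Nid2, Agrn and Col18a1). The counts moved by more than 1.5 times as follows. Higher with DOX at passage 7 were 6 genes with the replicate block and 6 with the replicate pair as a term, in place of 3. Upward differences of response were 5 with the pair term and 5 by DESeq2, in place of 3, and downward ones 1 with the replicate block, in place of 0. Lower at passage 7 without DOX were 5 without TMM, 7 with the replicate block and 7 with the pair term, in place of 3. Lower at passage 7 with DOX were 2 without the filter and 2 to 5 with single libraries left out, in place of 4. All other counts stayed within 1.5 times. The causes were not tested. The best correlate of a library carried its own replicate number for 8 of the 16. Scaling moved the median of all genes by less than 0.1 (log2). For the share tests only the values, and not the p-values, were compared between settings. A fit of only the groups compared filtered out Col15a1 for DOX at passage 4, Nid2 for DOX at passage 7 and both for passage with DOX, and DESeq2 gave no adjusted p for their differences of response; these are not counted. Low counts limit Nid2 and Col15a1 most.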
